A study of Mus musculus with 35 samples.

Results

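The 9 genes described here act on cyclic AMP (cAMP): Adcy7 makes it, Pde3b, Pde4a, Pde4b, Pde4d and Pde7a break it down, and Prkaca, Prkacb and Prkar1a encode subunits of protein kinase A (PKA), its main intracellular sensor. They are a list of names, drawn up with earlier results of these data known and not by a rule on measured values, from the 48709 mouse genes in the count tables, and all 9 were found by Ensembl identifier in all 35 libraries. All 9 also passed the filter on low counts, which left 13819 genes for testing. The lowest count of any member in any library was 175, for Pde4a, and the highest was 32179, for Adcy7.

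RNA was measured in cytotoxic T lymphocytes (CTLs) grown from CD8+ spleen cells of OT-I mice, whose T cells carry 1 transgenic receptor for an ovalbumin peptide, after priming with antibodies against CD3 and CD28 and expansion in IL-2. The cells were taken at 0 h, before any treatment, or after 24 h in medium of pH 7.4, 7 or 6.6. At each pH, cultures either had no IL-2 or received it at 200 IU/mL, so there were 7 groups of 5 replicates. All groups, the 0 h cells included, came from cultures that had been kept in IL-2. The medium had been acidified with hydrochloric acid, and dead cells were removed on Ficoll before RNA extraction, so the RNA is that of the cells that survived. The age of the mice was not given in the labels. The p-values measure the spread between libraries that remains after a term for the replicate number.

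cAMP is made from ATP by adenylyl cyclases that answer to G protein-coupled receptors, and it is removed by phosphodiesterases. It releases the catalytic subunits of PKA from their regulatory subunits, and PKA then phosphorylates, among many other proteins, the transcription factor CREB. In T cells the pathway is known for holding back signalling from the T cell receptor, and the phosphodiesterases of the PDE3, PDE4 and PDE7 families are known to limit it.

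The libraries held from 16721319 to 34033340 counts on genes. The 6 markers of CD8+ T cells summed to between 2619 and 4644 CPM (counts scaled to the library size) in all 35 libraries, while the summed B cell and myeloid markers stayed at or under 6.10 CPM, with Ms4a1, a B cell marker, at 0 in all 35. The 2 markers of natural killer cells summed to between 8.27 and 94.96 CPM, nearly all of it Klrb1c, and were highest at 0 h. The summed Gzmb, Prf1 and Nkg7, markers of cytotoxic cells, ran from 7897 to 10684.5 CPM at pH 7.4 with IL-2, from 929 to 2020 at pH 6.6 with IL-2 and from 304 to 470 in the 15 libraries without IL-2. The share of all counts in a table that the counting placed in no annotated exon also moved with the groups. Its medians were 4.33% and 7.86% for the IL-2 groups of pH 7.4 and 6.6, and 9.43% for the group of pH 7.4 without it. The part of these in the results below was not tested. In bulk RNA, fewer cells of a type and less RNA per cell cannot be told apart.

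In the GENCODE M21 annotation of GRCm38, all 9 are protein-coding genes, and the counts are over their annotated exons. Pde4b (ENSMUSG00000028525) lies at chr4:102087543-102607259 on the plus strand and Pde4d (ENSMUSG00000021699) at chr13:108449948-109953461 on the plus strand, with 13 and 20 annotated transcripts. Pde4a (ENSMUSG00000032177) lies at chr9:21165714-21213248, Pde3b (ENSMUSG00000030671) at chr7:114415281-114539251, Prkaca (ENSMUSG00000005469) at chr8:83972993-83996443, Adcy7 (ENSMUSG00000031659) at chr8:88272403-88329962 and Prkar1a (ENSMUSG00000020612) at chr11:109649405-109669656, all on the plus strand. Pde7a (ENSMUSG00000069094) at chr3:19223108-19311322 and Prkacb (ENSMUSG00000005034) at chr3:146729574-146812990 lie on the minus strand. At least 99.672% of the 50-base stretches of each member's transcripts occur in no other gene, and the lowest share is that of Prkaca.

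Per kilobase of exon, the members differed widely in their mean level over the 35 libraries. Prkar1a, the RI-alpha regulatory subunit of PKA, was highest at 151 CPM per kilobase. Adcy7, a membrane-bound cyclase prominent in blood cells, followed at 80.8, then Prkacb at 63.7, Pde3b at 52.8, Pde7a at 32.8 and Prkaca at 22.5. The PDE4 genes, which encode cAMP-specific enzymes blocked by rolipram, were lowest on this scale, at 9.61 for Pde4d, 8.23 for Pde4b and 1.70 for Pde4a. With the longest transcript as the length, Prkacb and Adcy7 exchanged ranks, as did Pde4d and Prkaca.

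**Figure D1:**
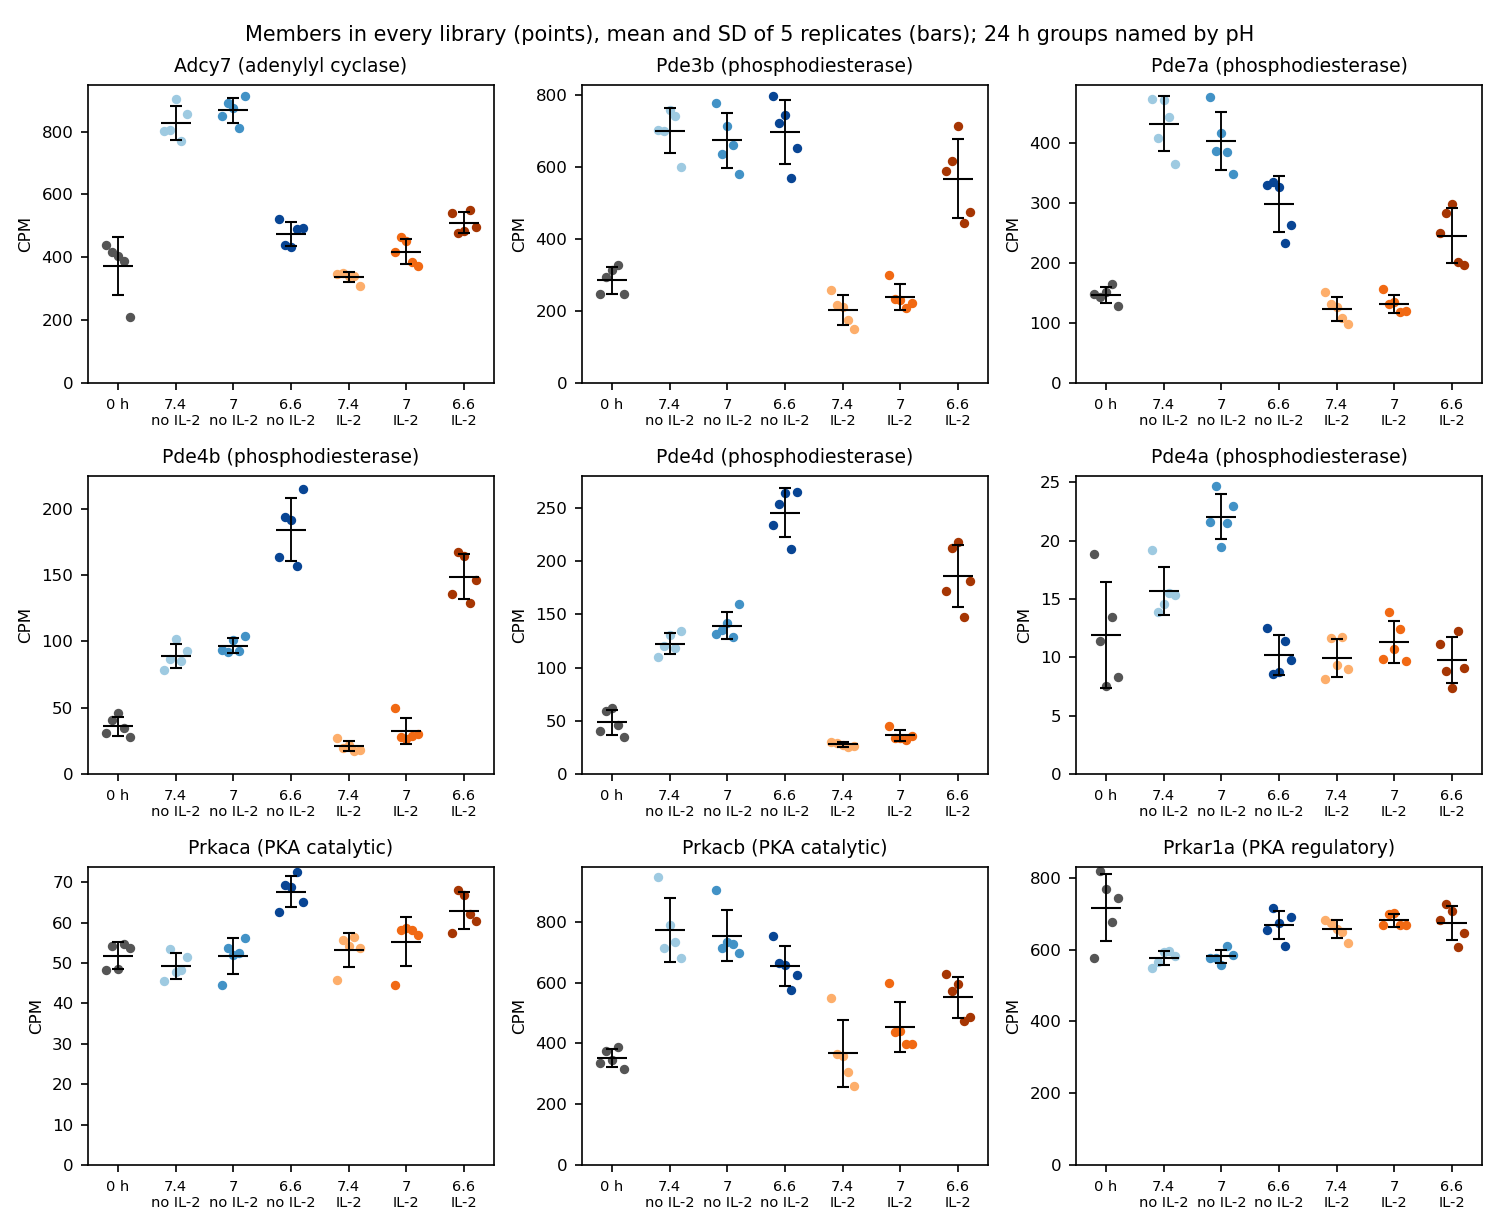
Level of each of the 9 genes in all 35 libraries, in CPM on a linear axis that starts at 0; each point is a library, and the black bars give the mean and SD of the 5 replicates of a group. Pde4b and Pde4d were lowest at pH 7.4 with IL-2 and highest at pH 6.6 without IL-2, while Prkar1a stayed between 548 and 818 CPM over all libraries.

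The first question is what a medium at pH 6.6 did to these transcripts in cells that were given IL-2. Of the 9 members, 7 were higher in acid (pH 6.6) than in neutral medium (pH 7.4) with IL-2 and none was lower, where 76.3% of all tested genes were called, 35.4% higher and 40.9% lower. The members that rose were Pde4b, Pde4d, Pde3b, Pde7a, Prkacb, Adcy7 and Prkaca, and Pde4a and Prkar1a did not pass the test. The median log2 fold change of the 9 was 0.61, beside -0.07 over all tested genes. A gene is called here when its p from edgeR's quasi-likelihood test, adjusted over all tested genes, was under 0.05.

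Pde4b changed most. In replicates 1 to 5 it stood at 27.3, 19.6, 22.04, 17.7 and 18.5 CPM at pH 7.4 with IL-2, and at 136, 167, 165, 129 and 146 CPM at pH 6.6 with IL-2. The lowest library at pH 6.6 was well above the highest at pH 7.4, so the groups did not overlap. The means were 21.01 ± 3.86 and 149 ± 16.9 CPM, a 7.10-fold difference with a log2 fold change of 2.83 (SE 0.14, adjusted p = 7.54e-18).

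Pde4d, encoded on another chromosome, moved nearly as far. Its values were 30.5, 29.1, 27.4, 25.7 and 26.3 CPM at pH 7.4 with IL-2 and 172, 212, 218, 148 and 182 CPM at pH 6.6 with IL-2, again without overlap. The log2 fold change was 2.73 (SE 0.12, adjusted p = 1.17e-19). Pde4a, the other PDE4 gene, did not pass the test: it stood at 9.98 ± 1.62 CPM at pH 7.4 and 9.76 ± 1.95 at pH 6.6, and its log2 fold change of -0.05 (SE 0.15, adjusted p = 0.773) took the other sign under 6 of the 12 alternatives.

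Pde3b, an enzyme that cGMP inhibits and that is best known from insulin signalling in fat cells, read 258, 216, 211, 174 and 151 CPM at pH 7.4 with IL-2 and 589, 617, 713, 445 and 474 CPM at pH 6.6. The groups were apart, and the log2 fold change was 1.49 (SE 0.10, adjusted p = 1.41e-14). Pde7a, which encodes a cAMP-specific enzyme that rolipram does not block, read 152, 131, 126, 109 and 98.7 CPM at pH 7.4 and 249, 283, 298, 201 and 197 CPM at pH 6.6. The 1.99-fold difference had a log2 fold change of 1.00 (SE 0.09, adjusted p = 3.24e-12), and every library at pH 6.6 was above every library at pH 7.4.

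The cyclase and the PKA subunits moved less. Adcy7 rose from 338 ± 16.1 to 510.0 ± 33.7 CPM (log2 fold change 0.60, SE 0.11, adjusted p = 1e-05), with the groups apart. Prkacb, the C-beta catalytic subunit, read 549, 364, 358, 306 and 261 CPM at pH 7.4 and 629, 573, 596, 473 and 487 CPM at pH 6.6. Replicate 1 was the highest library in both groups, so the groups overlapped, but in all 5 replicates the pH 6.6 library was the higher of its pair, and the fit with a term for the replicate number gave a log2 fold change of 0.61 (SE 0.09, adjusted p = 4.39e-07). Prkaca, the C-alpha catalytic subunit, rose by 0.25 on the log2 scale, from 53.2 ± 4.22 to 63.00 ± 4.48 CPM (SE 0.06, adjusted p = 0.000279). Prkar1a stood at 656 ± 25.6 CPM at pH 7.4 and 674 ± 47.9 CPM at pH 6.6, a log2 fold change of 0.04 (SE 0.07, adjusted p = 0.639).

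The same question in cells left without IL-2 had a different answer for several members. Without IL-2, 4 members were higher in acid than in neutral medium, 4 were lower and 1 did not pass, where 67% of all tested genes were called, 31.6% higher and 35.4% lower. With library sizes as the only scaling, the genes called over the whole table split into 3212 higher and 6048 lower, against 4367 and 4891 with the scaling used here. The members had a median log2 fold change of -0.01, beside -0.03 over all tested genes. The group at pH 7.4 is a different one in each of these comparisons, so they share no library.

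Pde4b and Pde4d were again the members that rose most. Pde4b read 78.2, 86.4, 102, 85.5 and 92.9 CPM at pH 7.4 without IL-2 and 164, 193, 192, 157 and 215 CPM at pH 6.6, and Pde4d read 110.0, 120.0, 130.4, 118 and 134 and 235, 254, 265, 212 and 265 CPM. For both genes the groups were apart, and the log2 fold changes were 1.05 (SE 0.13, adjusted p = 3.61e-08) and 1.00 (SE 0.11, adjusted p = 1.68e-09). Prkaca rose as well, from 49.3 ± 3.17 to 67.7 ± 3.88 CPM, by 0.46 on the log2 scale (SE 0.06, adjusted p = 2.66e-08), with no overlap. Prkar1a rose from 576 ± 20.04 to 669 ± 39.7 CPM (log2 fold change 0.21, adjusted p = 0.00625), a call that was lost with library sizes as the only scaling (0.06) and without replicate 2 (0.15).

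Adcy7, Pde7a and Pde4a went down. Adcy7 read 801, 805, 904, 769 and 857 CPM at pH 7.4 without IL-2 and 521, 438, 431, 490.3 and 492 CPM at pH 6.6, and all 5 acid libraries were under all 5 neutral ones (log2 fold change -0.80, SE 0.11, adjusted p = 1.15e-07). Pde7a fell from 433 ± 46.1 to 298 ± 46.4 CPM (log2 fold change -0.54, SE 0.09, adjusted p = 1.42e-06). Pde4a fell from 15.7 ± 2.05 to 10.2 ± 1.70 CPM (log2 fold change -0.63, SE 0.15, adjusted p = 0.000397), and the groups of these genes did not overlap either. Prkacb was called lower, at 655 ± 65.8 against 774 ± 105 CPM (log2 fold change -0.23, adjusted p = 0.0248), but the groups overlapped and the call was lost under 5 of the 12 alternatives, among them the fit without the replicate term (adjusted p = 0.124) and those without replicate 3 (-0.20) or 4 (-0.21). Pde3b stood at 700.4 ± 61.97 and 697 ± 88.5 CPM and did not pass the test (log2 fold change -0.01, SE 0.10, adjusted p = 0.923).

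**Figure D2:**
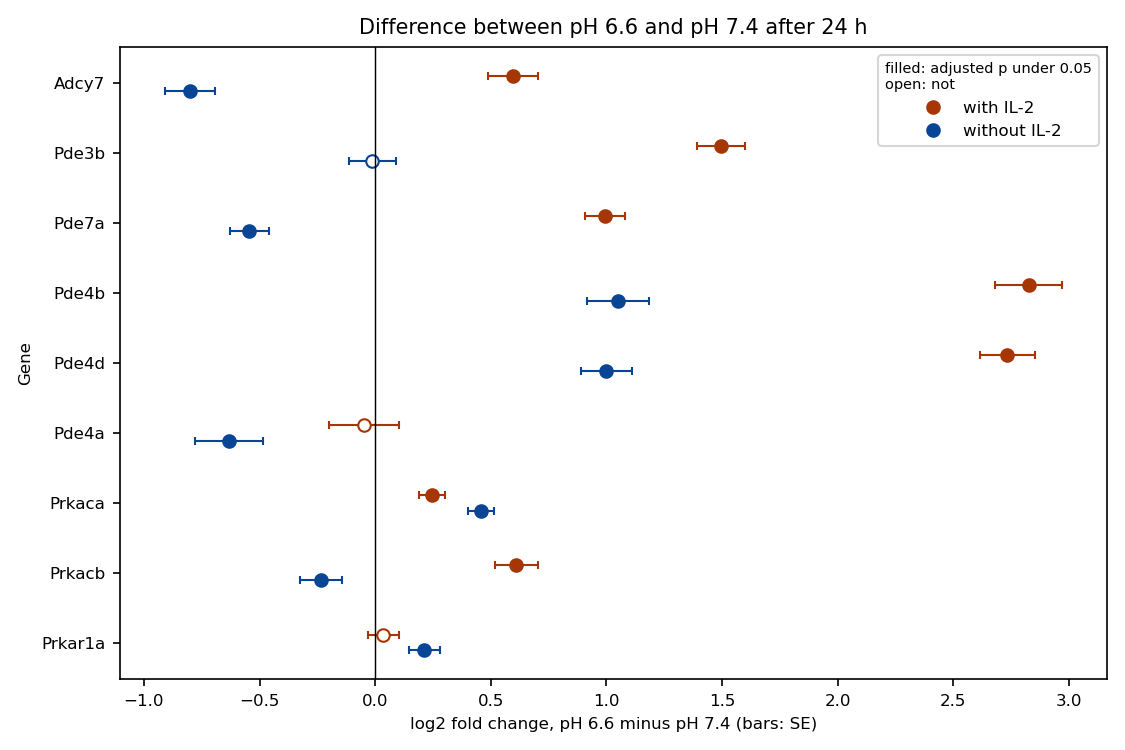
Difference between acid (pH 6.6) and neutral medium for each of the 9 genes, as log2 fold change with its SE, with IL-2 in red and without IL-2 in blue; filled points passed the test and open points did not. With IL-2 the called points all lie above 0, and without IL-2 Adcy7, Pde4a, Pde7a and Prkacb lie below 0.

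The difference between the acid effects with and without IL-2 was tested directly, as an interaction term. It was called for 8 of the 9 members, 7 of them higher with IL-2 and 1 lower, where 67% of all tested genes were called, 34.3% higher and 32.8% lower. With library sizes as the only scaling those calls over the whole table split into 5945 higher and 3518 lower, against 4735 and 4526. The median of the members was 1.40 on the log2 scale, beside 0.04 over all tested genes. The interaction was largest for Pde4b at 1.78 (SE 0.19, adjusted p = 9.58e-10) and Pde4d at 1.74 (SE 0.16, adjusted p = 1.7e-11). Pde7a at 1.54, Pde3b at 1.51 and Adcy7 at 1.40 followed, then Prkacb at 0.85 and Pde4a at 0.58 (adjusted p = 0.0164). For Adcy7, Pde7a and Prkacb the acid effect itself had opposite signs with and without IL-2. Prkaca had an interaction of -0.21 (adjusted p = 0.0222), which turned to 0.02 with library sizes as the only scaling and was not called under 7 of the 12 alternatives, among them those without replicate 1, 2 or 4 (-0.13, -0.15 and -0.15). Prkar1a did not pass, at -0.18 (adjusted p = 0.0986).

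A milder change, from pH 7.4 to pH 7, moved fewer members and by less. With IL-2, 4 of the 9 were called, all higher, where 19% of all tested genes were called, 9.15% higher and 9.83% lower. With library sizes as the only scaling the calls over the whole table were 1659 higher and 866 lower, against 1264 and 1359. Pde4b had a log2 fold change of 0.64 (SE 0.14, adjusted p = 0.00157), Pde4d of 0.39 (adjusted p = 0.0151), Prkacb of 0.32 (adjusted p = 0.013) and Adcy7 of 0.31 (adjusted p = 0.044). Pde4b at pH 7 with IL-2 read 49.99, 27.7, 26.5, 28.98 and 29.9 CPM in replicates 1 to 5. Replicate 1 stood far above the other four, and it also stood apart for Pde3b, Pde4d, Prkaca and Prkacb in this group.

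Without replicate 1, 2 members were called at pH 7 with IL-2, where 2425 of 13777 tested genes were called. Pde4b then had a log2 fold change of 0.54 and Prkacb of 0.38, while Pde4d, at 0.32, and Adcy7, at 0.31, had adjusted p of 0.0559 and 0.0965. The number called was also 2 without replicate 2, without replicate 3 and without the replicate term. Over all tested genes these fits called 1374, 1283 and 1660. Only the call on Pde4b held under all 12 alternatives.

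Without IL-2, none of the 9 members was called between pH 7 and pH 7.4 by edgeR, where 1.68% of all tested genes were. Of the 13819 tested genes DESeq2 called 301, and of the 9 members it called 1. This was Pde4a, at 21.6, 24.7, 19.5, 21.5 and 22.9 CPM at pH 7 and 19.2, 13.9, 14.6, 15.5 and 15.4 CPM at pH 7.4. All 5 libraries at pH 7 were above all 5 at pH 7.4, and its log2 fold change was 0.50 (SE 0.14, adjusted p = 0.0772 by edgeR and 0.0467 by DESeq2). Without replicate 1 the edgeR fit gave 0.58 (adjusted p = 0.0083). Of the 9 members, 1, Pde4a, had an unadjusted p under 0.05, with no share of all tested genes at hand to set beside this. Pde4a was the only member whose highest group was the one at pH 7 without IL-2 with the next group apart from it.

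The next question is what IL-2 did at each pH. At pH 7.4, 7 of the 9 members were lower with IL-2 than without, 1 was higher and 1 did not pass, where 80.4% of all tested genes were called, 39.3% higher and 41.1% lower. The members had a median log2 fold change of -1.29, beside -0.04 over all tested genes. These comparisons use the libraries at pH 7.4 with and without IL-2 that also served as references for the acid effects above, so the values of each stand side by side and are not separate evidence.

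Of the 5 phosphodiesterases, 4 were the members most reduced, and Pde4a was the least reduced of the members called lower. With IL-2 against none at pH 7.4, the log2 fold change was -2.14 for Pde4d (SE 0.12, adjusted p = 1.09e-17), -2.09 for Pde4b (SE 0.14, adjusted p = 4.87e-15), -1.82 for Pde7a (SE 0.09, adjusted p = 6.11e-19) and -1.81 for Pde3b (SE 0.10, adjusted p = 7.12e-17). Pde7a read 474, 408, 472, 443 and 365 CPM without IL-2 at pH 7.4. Pde3b without IL-2 read 702, 701, 759, 741 and 599 CPM, and the groups with and without IL-2 were apart for both genes. Pde4a was lower by a smaller step, -0.65 (SE 0.15, adjusted p = 0.000196).

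Adcy7 and Prkacb were lower with IL-2 too. Adcy7 stood at 338 ± 16.1 CPM with IL-2 and 827 ± 53.3 CPM without (log2 fold change -1.29, SE 0.11, adjusted p = 1.44e-12), and Prkacb at 368 ± 109.7 and 774 ± 105 CPM (log2 fold change -1.10, SE 0.09, adjusted p = 1.37e-12). Prkar1a was the member called higher, with 683, 675, 658, 649 and 617 CPM with IL-2 and 548, 564, 593, 596 and 581 CPM without. Its groups were apart, but the step was small (log2 fold change 0.19, SE 0.07, adjusted p = 0.0119), and the call was lost with library sizes as the only scaling (0.03), with genes limited to those with at least 10 counts in every library (0.14), without replicate 1 (0.09) and without replicate 2 (0.11). Prkaca did not pass (log2 fold change 0.11, adjusted p = 0.0876).

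At pH 7 the picture was close to that at pH 7.4, with the same 7 members lower and Prkar1a higher, where 77.2% of all tested genes were called, 37.6% higher and 39.5% lower. The log2 fold changes there were -1.94 for Pde4d, -1.60 for Pde7a, -1.57 for Pde4b, -1.50 for Pde3b, -1.06 for Adcy7, -0.96 for Pde4a and -0.74 for Prkacb. The call on Prkar1a, at 0.23, was lost with library sizes as the only scaling (0.11) and without replicate 2 (0.15).

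At pH 6.6 the steps with IL-2 were small. There, 4 of the 9 members were lower with IL-2, none was higher and 5 did not pass, where 23.7% of all tested genes were called, 13.2% higher and 10.6% lower. With library sizes as the only scaling the calls over the whole table were 2254 higher and 769 lower, against 1819 and 1459. Pde4d had a log2 fold change of -0.40 (SE 0.11, adjusted p = 0.00596), Pde3b of -0.30 (adjusted p = 0.0273), Pde7a of -0.28 (adjusted p = 0.015) and Prkacb of -0.25 (adjusted p = 0.0438). The groups overlapped for all 9 members, with no share of all tested genes at hand to set beside this. Only Pde4d kept its call under all 12 alternatives. The count was 1 without replicate 1, without replicate 2 and without replicate 5, and 1 as well without the replicate term. Over all tested genes these fits called 2479, 2624, 2504 and 2415, against 3278 in the main fit. Pde4b, at -0.31 (SE 0.13, adjusted p = 0.0847), and Adcy7, at 0.10 (SE 0.11, adjusted p = 0.532), did not pass.

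**Figure D3:**
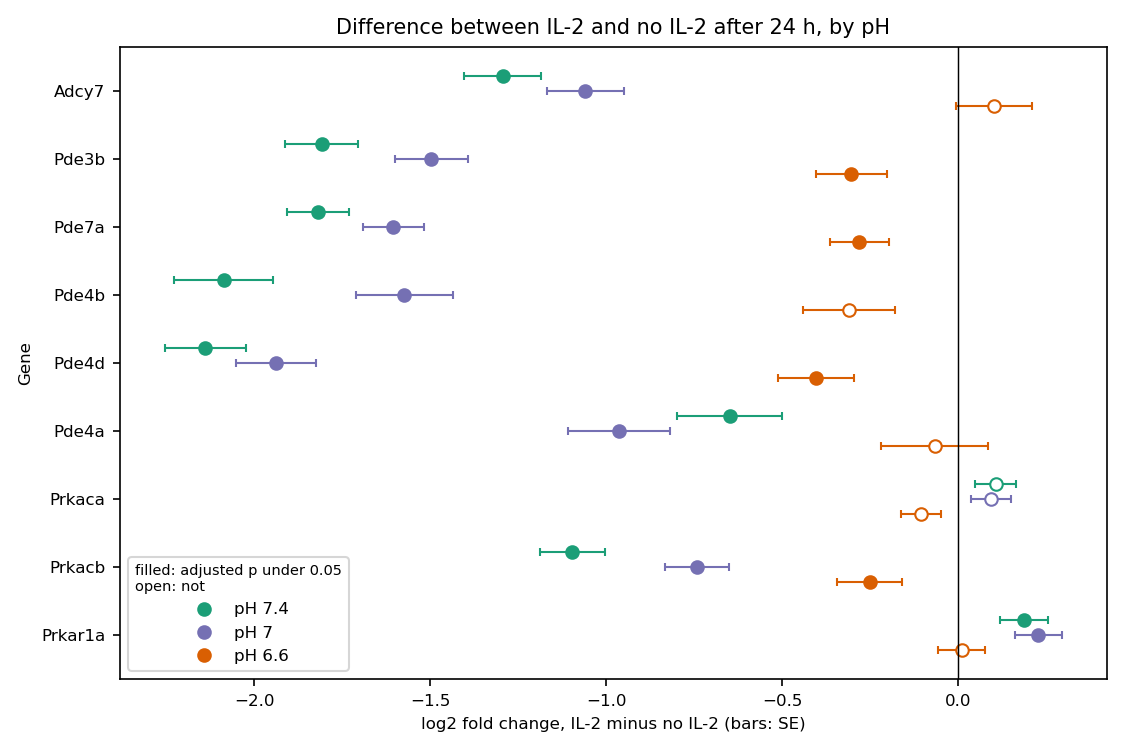
Difference between IL-2 and no IL-2 for each of the 9 genes at pH 7.4, pH 7 and pH 6.6, as log2 fold change with its SE; filled points passed the test and open points did not. For Pde4d the points lie at -2.14, -1.94 and -0.40, and for Adcy7 at -1.29, -1.06 and 0.10.

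The cells at 0 h show where the levels stood before the treatment. The comparisons with them share the 0 h libraries and reuse the libraries at pH 7.4 from the comparisons above, so they are not separate evidence. After 24 h at pH 7.4 without IL-2, 7 members were higher than at 0 h, 1 was lower and 1 did not pass, where 75.2% of all tested genes were called, 36.9% higher and 38.3% lower. Pde7a rose by 1.55 on the log2 scale (SE 0.09, adjusted p = 9e-17), from 147 ± 13.01 to 433 ± 46.1 CPM, and Pde4d, Pde4b, Pde3b, Adcy7 and Prkacb by 1.35, 1.31, 1.29, 1.17 and 1.12. Pde4a was called higher at 0.43 (adjusted p = 0.00907), a call lost without replicate 3 (0.32) and without replicate 5 (0.33). Prkar1a was lower, at -0.31 (SE 0.07, adjusted p = 0.00013).

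After 24 h at pH 7.4 with IL-2, none of the 9 was higher than at 0 h, 4 were lower and 5 did not pass, where 59.9% of all tested genes were called, 29% higher and 30.9% lower. Pde4d had a log2 fold change of -0.79 (adjusted p = 3.57e-07), Pde4b of -0.78 (adjusted p = 1.56e-05) and Pde3b of -0.52 (adjusted p = 5.35e-05). Pde7a, at -0.27 (adjusted p = 0.00734), lost its call without the replicate term (-0.25, adjusted p = 0.078), without replicate 4 (-0.18) and without replicate 5 (-0.23). At 0 h, Adcy7 read 438, 416, 404, 388 and 211 CPM, with replicate 5 far under the others. Without that replicate Adcy7 was called lower with IL-2 than at 0 h, at -0.24 (adjusted p = 0.00816). Prkar1a was called lower with library sizes as the only scaling, at -0.19 (adjusted p = 0.0165), and without replicate 1, at -0.22 (adjusted p = 0.00683). Without replicate 1 the log2 fold change of Prkacb turned from 0.02 to -0.17 (adjusted p = 0.0755).

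The order of the 7 groups differed from member to member. Pde4b was highest at pH 6.6 without IL-2 (184 CPM), then pH 6.6 with IL-2 (149), pH 7 without (96.8), pH 7.4 without (88.9), 0 h (35.9), pH 7 with (32.6) and pH 7.4 with IL-2 (21.01). Neighbours overlapped in this order except at 2 steps, from pH 6.6 with IL-2 to pH 7 without IL-2 and from pH 7.4 without IL-2 to 0 h. Pde4d had the same order, with mean levels from 246 down to 27.8 CPM, and its breaks were between pH 7.4 without IL-2 and 0 h and between pH 7 and pH 7.4 with IL-2.

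Pde3b fell into a high and a low set. Its 3 groups without IL-2, at 700.4, 697 and 674 CPM, overlapped with each other and with pH 6.6 with IL-2 (568 CPM), and 0 h, pH 7 with IL-2 and pH 7.4 with IL-2, at 286, 239 and 202 CPM, formed the lower set. Pde7a had its groups at pH 7.4 and pH 7 without IL-2 on top (433 and 403 CPM), both pH 6.6 groups in the middle (298 without and 246 with IL-2) and the rest below, at 147 CPM or less, with no overlap between these sets in the order of means. Adcy7 had pH 7 and pH 7.4 without IL-2 on top, at 868 and 827 CPM, and a break to all other groups, which ran from 510.0 at pH 6.6 with IL-2 to 338 CPM at pH 7.4 with IL-2. Pde4a was highest at pH 7 without IL-2 (22.04 CPM), with a break to pH 7.4 without IL-2 (15.7 CPM) and none among the rest, down to 9.76 CPM at pH 6.6 with IL-2. Prkacb and Prkaca had no break between neighbours anywhere in their order, which ran from 774 to 352 CPM and from 67.7 to 49.3 CPM. Prkar1a had a single break, between pH 7.4 with IL-2 (656 CPM) and pH 7 without IL-2 (581 CPM), and was highest at 0 h (716 CPM).

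Among the 9006 tested genes whose mean log2 CPM was 3 or more, the gene whose level over the 35 libraries was most like that of Pde4b was Pde4d (Pearson r = 0.992), and the gene most like Pde4d was Pde4b. The next in line were Nsd3 for Pde4b (r = 0.988) and Fbxl20 for Pde4d (r = 0.99). The nearest genes were Rb1cc1 and Klhl42 for Pde3b (r = 0.986 and 0.985), Lztfl1 and Arid4a for Pde7a (0.983 and 0.982), Zfp169 and Idua for Adcy7 (0.97 and 0.966) and Oxr1 and Zbtb20 for Prkacb (0.964 and 0.959). The likeness was lower for Prkaca, with Aaas and Nr4a2 at 0.896 each, for Pde4a, with Lrrc45 at 0.885 and Zscan20 at 0.871, and for Prkar1a, with Trim36 at 0.858 and Tollip at 0.853. The 35 points share 7 conditions, so these values mostly describe how the groups differ.

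The promoters of the members were read because Pde4b and Pde4d had nearly the same pattern over the libraries, and because CREB, which PKA acts on, binds a known motif, the cAMP response element (CRE). RefSeq windows of 250 bases before a transcript start (GRCm38.p6) were on hand for 7 of the 9 members, 22 windows in all, and Pde3b and Pde7a had none. The CRE TGACGTCA, read on both strands, lay in 1 of the 22 windows, beside 1.547% of 32841 windows of the same length. That window belongs to Prkar1a, at 49 bases before a start on chromosome 11. The short CRE motif TGACG, which the full CRE contains on each strand, lay in 8 of the 22 windows (36.364%, beside 17.77% of all windows), and the E-box CACGTG in 2 (beside 6.023%). The FOXO motif TGTTTAC was in none of the 22, beside 3.167% of all. Windows of the same gene overlap or lie close together, so they are not separate observations, and a match of letters is not a binding site.

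The 5 windows below, chosen after the values were seen, show Pde4b and Pde4d, which rose most in acid, Adcy7, whose acid effect had opposite signs with and without IL-2, Prkaca, which has the short motif at 2 places, and Prkar1a, which has the full CRE, with full and short CRE motifs in capitals (CGTCA is the short motif on the opposite strand). Each is the longest stretch of the window without annotated exon of its own gene, written 5′ to 3′ on the strand of the gene, which is the plus strand for all 5. Pde4b has the short motif 34 bases before this start, in the stretch annotated as exon and so not shown. For Pde4d only 1 window was on hand, and it has no full or short motif. Other starts of Pde4d, which has 20 annotated transcripts, were not read. The counts do not tell which start was used.
Pde4b, chr4:102421305-102421517: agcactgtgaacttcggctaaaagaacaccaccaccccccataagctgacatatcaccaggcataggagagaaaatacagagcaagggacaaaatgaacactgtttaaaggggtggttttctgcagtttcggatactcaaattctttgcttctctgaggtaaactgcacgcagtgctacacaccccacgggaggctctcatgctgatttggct
Pde4d, chr13:108653927-108654104: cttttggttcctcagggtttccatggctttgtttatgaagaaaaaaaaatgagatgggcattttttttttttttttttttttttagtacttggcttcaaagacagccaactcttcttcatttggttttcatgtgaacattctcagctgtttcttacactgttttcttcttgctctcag
Adcy7, chr8:88282742-88282991: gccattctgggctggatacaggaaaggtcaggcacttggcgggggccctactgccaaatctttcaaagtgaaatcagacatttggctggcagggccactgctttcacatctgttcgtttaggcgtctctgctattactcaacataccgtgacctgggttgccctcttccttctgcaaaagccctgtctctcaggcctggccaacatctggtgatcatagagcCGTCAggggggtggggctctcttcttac
Prkaca, chr8:83972728-83972977: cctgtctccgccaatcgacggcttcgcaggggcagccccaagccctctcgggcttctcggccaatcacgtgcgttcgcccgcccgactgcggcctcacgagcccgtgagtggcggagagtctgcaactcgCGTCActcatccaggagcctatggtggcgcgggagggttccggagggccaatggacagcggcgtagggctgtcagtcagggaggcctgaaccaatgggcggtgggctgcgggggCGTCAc
Prkar1a, chr11:109650699-109650920: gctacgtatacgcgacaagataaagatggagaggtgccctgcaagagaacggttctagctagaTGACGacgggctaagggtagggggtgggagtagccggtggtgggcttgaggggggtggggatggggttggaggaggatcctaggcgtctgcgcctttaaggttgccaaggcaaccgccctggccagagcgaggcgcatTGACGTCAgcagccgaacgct

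The windows differ in base composition. G and C made up 47.4% of the Pde4b stretch and 33.7% of that of Pde4d, against 54.00% for Adcy7, 60.8% for Prkar1a and 68.8% for Prkaca. In the windows shown, Adcy7 holds its short motif 28 bases before the start. Prkaca holds its short motifs 120 and 6 bases before the start, together with an E-box at 185. The short motif lay in 1 of 3 windows of Adcy7, 1 of 4 of Pde4b and 1 of 2 of Prkaca, and the window shown is that one.

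The members sit in a larger pathway, and 69 other genes of it were taken as 8 lists, of which 45 genes passed the filter on low counts. At pH 6.6 against 7.4 with IL-2, 22 of these 45 were higher, 12 were lower and 11 did not pass, with a median log2 fold change of 0.22. Without IL-2, 20 were higher, 15 lower and 10 not called, with a median of 0.16. Between IL-2 and none at pH 7.4, 19 were higher and 19 lower, with a median of 0.04. Over all tested genes the shares called in these 3 comparisons were 76.3%, 67% and 80.4%, so calls alone do not set the lists apart, and they are described by their genes. By direction, 35.4% were higher and 40.9% lower at pH 6.6 with IL-2, and 31.6% and 35.4% without it. For IL-2 at pH 7.4 the shares were 39.3% and 41.1%. These shares stand beside the counts of every list below.

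Other phosphodiesterases did not follow Pde4b and Pde4d as a group at pH 6.6 against 7.4. Of 6 tested, 2 were higher and 3 lower with IL-2 (median 0.35, range -0.91 to 5.43). The gene at the top of this range missed the rule for naming genes, which asks for a call and a mean log2 CPM of 1 or more. Without IL-2, none of the 6 was higher and 4 were lower (median -1.40). For IL-2 against none at pH 7.4, 1 was higher and 4 were lower (median -1.19), beside 39.3% and 41.1% of all tested genes. In the interaction, 5 were higher and none was lower (median 1.48), beside 34.3% and 32.8%. Pde11a, which hydrolyses cAMP and cGMP, fell by 2.38 on the log2 scale at pH 6.6 without IL-2, from 8.06 ± 0.699 to 1.54 ± 0.254 CPM (SE 0.19, adjusted p = 1.01e-12), and by 0.91 with IL-2 (adjusted p = 1.91e-05). Pde8a, a cAMP-specific enzyme, fell by 1.96 without IL-2 (SE 0.17, adjusted p = 7.54e-12). Of the 2 other cyclases tested, Adcy3 fell at pH 6.6 both with IL-2, from 52.1 ± 4.57 to 17.98 ± 3.48 CPM (log2 fold change -1.53, SE 0.11, adjusted p = 1.7e-14), and without it (log2 fold change -1.38, SE 0.11, adjusted p = 1.7e-12).

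The other PKA genes tested were 4, of which 1 was higher and 2 were lower at pH 6.6 with IL-2 (median -0.71) and likewise 1 and 2 without IL-2 (median -0.07). Prkar2a, the RII-alpha regulatory subunit, stood at 128 ± 17.5 CPM at pH 7.4 with IL-2 against 43.5 ± 3.30 without (log2 fold change 1.56, SE 0.11, adjusted p = 2.91e-14), and at 48.7 ± 4.85 CPM at pH 6.6 with IL-2 (log2 fold change against pH 7.4 -1.39, SE 0.11, adjusted p = 6.39e-13). This is the opposite direction to Prkacb in both comparisons. Pkig, a small PKA inhibitor, fell by 1.79 at pH 6.6 with IL-2 (SE 0.13, adjusted p = 1.71e-14).

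The A-kinase anchoring proteins, which hold PKA at sites in the cell, were split, with 4 higher and 3 lower of 9 at pH 6.6 with IL-2 (median 0.10) and 2 higher and 4 lower without (median -0.03). Akap1, which anchors PKA at mitochondria, fell by 1.97 at pH 6.6 with IL-2 (adjusted p = 3.12e-15) and was higher with IL-2 than without at pH 7.4 by 2.09 (adjusted p = 3.74e-16). Akap7 was lower with IL-2 at pH 7.4, at -2.36 (adjusted p = 2.9e-17), and Akap12 fell by 1.31 at pH 6.6 without IL-2 (adjusted p = 5.78e-07). The cAMP-activated exchange factors were both higher at pH 6.6 with IL-2, and Rapgef4, which encodes EPAC2, went from 5.15 ± 0.824 to 35.2 ± 1.77 CPM (log2 fold change 2.78, SE 0.14, adjusted p = 8.6e-18). At pH 6.6 without IL-2, 1 of them was higher and 1 lower (median -0.16). Rapgef4 rose there by 0.41 (adjusted p = 0.00534), while Rapgef3, which encodes EPAC1 and was named after its values were seen, fell from 5.09 ± 1.47 to 3.05 ± 0.658 CPM (log2 fold change -0.74, SE 0.20, adjusted p = 0.00154). Without IL-2 at pH 7.4, Rapgef4 stood at 33.9 ± 2.98 CPM (log2 fold change of IL-2 against none -2.72, adjusted p = 5.56e-18).

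Upstream of the cyclases, 6 of 9 receptors known to raise cAMP were higher at pH 6.6 with IL-2 and 2 lower (median 1.23), and 6 were higher and 2 lower without IL-2 (median 0.79). Of all tested genes, 35.4% were higher and 40.9% lower with IL-2, and 31.6% and 35.4% without it. Adora2a, a receptor for adenosine, rose from 4.41 ± 1.32 to 44.97 ± 13.8 CPM at pH 6.6 with IL-2 (log2 fold change 3.34, SE 0.15, adjusted p = 2.3e-19) and was lower with IL-2 than without at pH 7.4 (-2.36, adjusted p = 4.54e-16). Vipr1 and Vipr2, receptors for vasoactive intestinal peptide, had log2 fold changes of -4.19 and -3.17 with IL-2 against none at pH 7.4 (adjusted p = 2.66e-20 and 1.08e-15), and Vipr1 fell by 2.37 at pH 6.6 without IL-2 (adjusted p = 1.74e-14). Ptger4, a prostaglandin E2 receptor, went the other way, with 1.53 for IL-2 at pH 7.4 (adjusted p = 1.25e-12). Of 4 tested G protein alpha subunits, 1 was higher and 1 lower at pH 6.6 with IL-2 and 3 were higher without it. Gnal, a stimulatory subunit, rose by 2.93 with IL-2 (adjusted p = 5.79e-13), from 1.36 ± 0.540 to 10.4 ± 2.58 CPM.

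Downstream, the genes known as targets of cAMP and CREB had no member called lower at pH 6.6, with or without IL-2. Of 9 tested, 6 were higher with IL-2 (median 1.17, range -1.36 to 3.63) and 7 without (median 1.82, range -1.34 to 4.07). The others, the lowest among them, did not pass. Over all tested genes, 35.4% and 31.6% were called higher. Nr4a1, a nuclear receptor of the NR4A family, rose from 1.34 ± 0.708 to 16.6 ± 5.44 CPM with IL-2 (log2 fold change 3.63, SE 0.28, adjusted p = 1.67e-13) and from 1.12 ± 0.265 to 19.3 ± 4.37 CPM without (log2 fold change 4.07, SE 0.28, adjusted p = 6.76e-14). Per1, a clock gene, rose by 2.24 with IL-2 (adjusted p = 6.8e-13). Without IL-2, Nr4a2 rose by 2.86, Sik1, a kinase that restrains CREB coactivators, by 2.32, Nr4a3 by 2.01 and Crem, which encodes CREB-related repressors and activators, by 1.82 (adjusted p between 2.8e-15 and 1.15e-10). For protein, the paper reports that neither CREB nor CREM became phosphorylated or built up under acidic conditions. The values here are RNA, and the part of cAMP or CREB in them was not tested. With IL-2 against none at pH 7.4, 6 of the 9 target genes were higher and 1 lower (median 0.59), beside 39.3% and 41.1% of all tested genes. Among those higher were Nr4a3 at 1.78 (adjusted p = 4.48e-10) and Fos at 1.34 (SE 0.54, adjusted p = 0.0245).

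**Figure D4:**
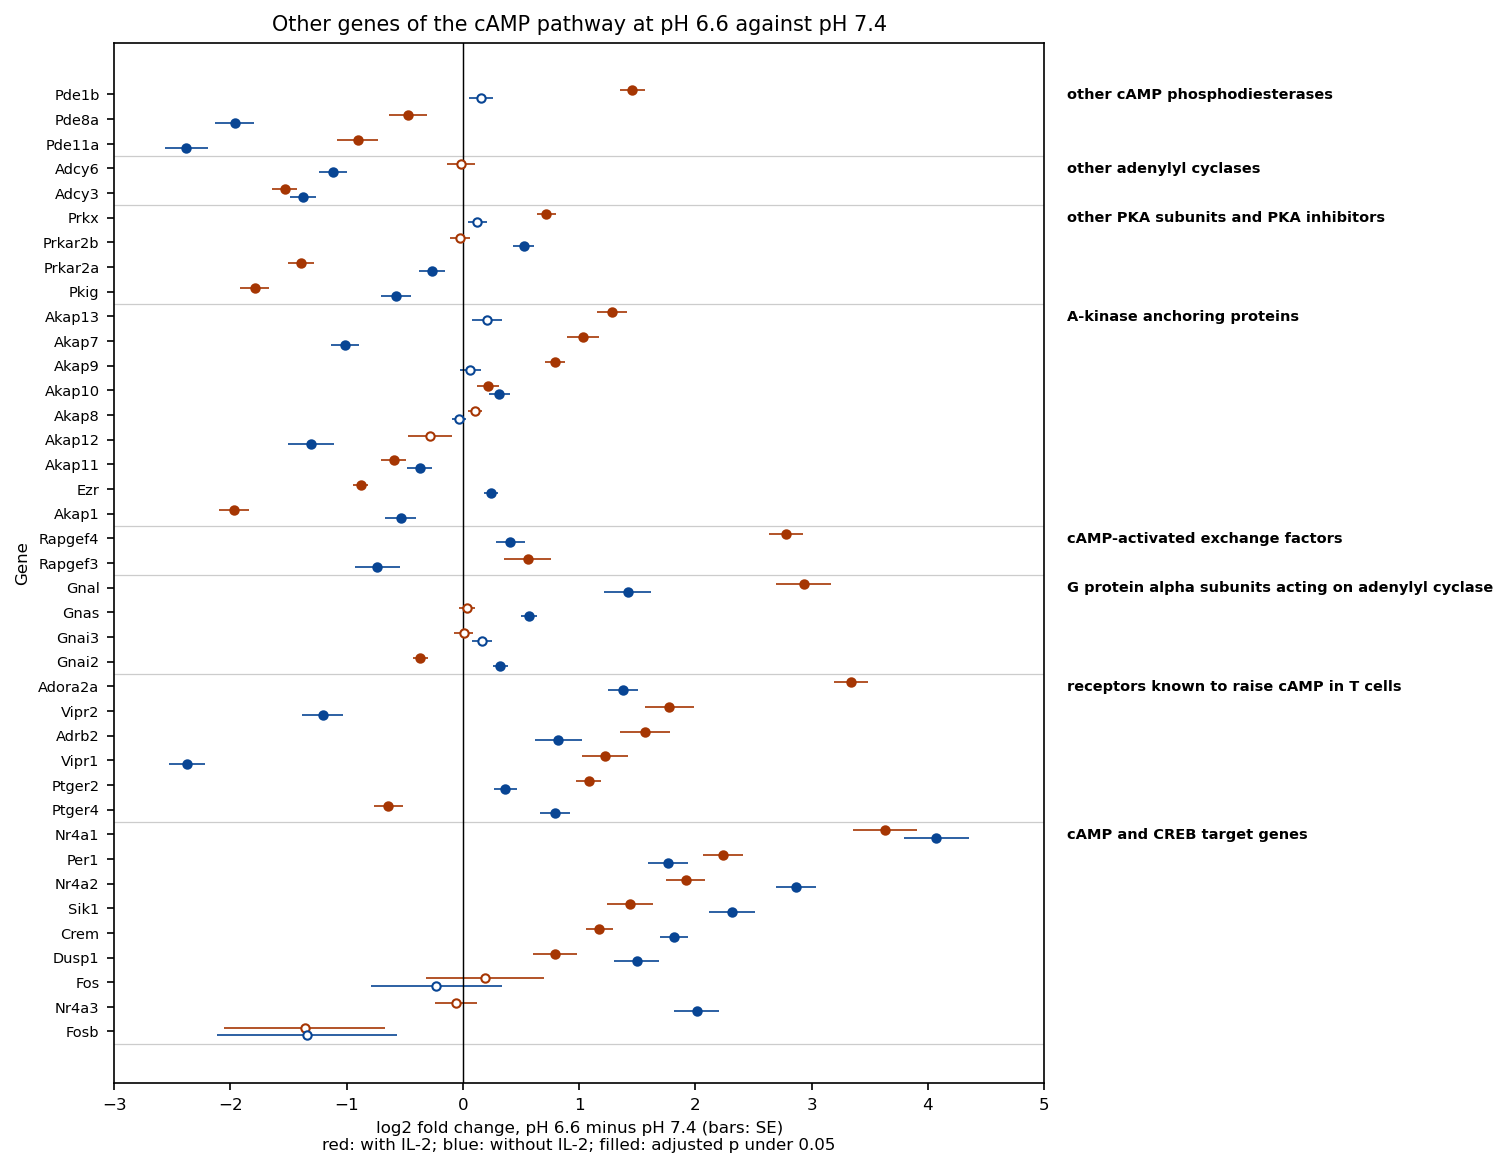
Log2 fold change between acid (pH 6.6) and neutral medium, with SE, for the 39 other tested genes of the cAMP pathway whose mean log2 CPM was 1 or more, grouped by list, with IL-2 in red and without IL-2 in blue; filled points passed the test. The target genes at the bottom lie mostly right of 0 in both colours, led by Nr4a1 at 3.63 and 4.07, while the anchoring proteins and phosphodiesterases lie on both sides.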

How the data were processed

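RNA-seq libraries of polyadenylated RNA (TruSeq stranded kit, single reads, Illumina HiSeq) were prepared by the authors, who deposited 1 table of counts per library: whole-number reads per Ensembl gene, not normalized. The submitters' processing notes name cutadapt 1.8, STAR 2.5.2b, HTSeq 0.6.1 and GRCm38. The annotation, strand setting and read length are not given in the sources used here. The 5 closing lines of each table, which name no gene, were not used in the tests. Of all counts in a table, these lines included, a median of 37.1% stood on the line for alignments that were not unique. Depth limits Pde4a most, with 175 to 893 counts per library. Groups came from the labels.

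Counts were fitted with edgeR 4.0.16 (R 4.3.3, limma 3.58.1) on all 35 libraries: filterByExpr with a minimum count of 10, TMM scaling, a term for the replicate number, because the study's methods pair replicates, robust quasi-likelihood tests of 10 comparisons, and Benjamini-Hochberg adjustment over 13819 genes with a threshold of 0.05. Levels are CPM on TMM-scaled library sizes. Same-numbered libraries deviated together (r over 0.1) in 95 of 105 pairs, from -0.0387, with a median of 0.273. Most of the other pairs held a 0 h library, so the pairing was weakest there. No 2 libraries of a group agreed within counting noise. The fit was tested on simulated counts with known changes. Alternatives were DESeq2 1.42.0, RLE or library-size scaling, other filters, no replicate term, only the groups compared and leaving out each replicate. Named list genes are the 5 largest rises and 5 largest falls among called list genes whose mean log2 CPM was 1 or more, in each of 3 comparisons; likeness names 2 genes per member. Promoter windows came from RefSeq, and figures were drawn with matplotlib 3.10.9 in Python 3.11.15. The members and lists were chosen with earlier results of these data known.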

Additional observations from a re-analysis of the deposited data

Results flagged for a closer look

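The acid effect at pH 6.6 differed between cells with and without IL-2 for 8 members by the interaction test, where 67% of all tested genes were called. The call on Prkaca did not hold under all alternatives, as given above. The differences on the log2 scale were 1.78 for Pde4b, 1.74 for Pde4d, 1.54 for Pde7a, 1.51 for Pde3b, 1.40 for Adcy7, 0.85 for Prkacb, 0.58 for Pde4a and -0.21 for Prkaca.

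Single libraries stood far from the other 4 of their group in 9 of 63 combinations of member and group. About 1 in 20 would be flagged by chance if the combinations were separate. All members were read in the same libraries, so the 9 flags are not separate observations. Replicate 1 at pH 7 with IL-2 accounted for 5 of them. It read 299 CPM for Pde3b (others 209 to 233), 50.0 for Pde4b (26.5 to 29.9), 45.4 for Pde4d (32.2 to 36.0), 598 for Prkacb (397 to 440.3) and 44.7 for Prkaca (56.8 to 58.8). Replicate 1 was also apart for Prkaca at pH 7.4 with IL-2, at 45.9 CPM (others 53.7 to 56.4), and for Prkacb at pH 7 without IL-2, at 904 CPM (others 697 to 733). Replicate 5 was apart for Adcy7 at 0 h, at 211 CPM (others 388 to 438), and at pH 7.4 with IL-2, at 309.9 CPM (others 341 to 349).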

How the results depend on the processing

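Of 1080 refitted log2 fold changes of the members (9 genes, 10 comparisons, 12 alternatives), 992 kept their direction and their side of the threshold, 53 lost and 12 gained the call, and 23 changed sign. The calls on Pde4b and Pde4d at pH 6.6 against 7.4 held under all 12 alternatives, with and without IL-2. Without the replicate block, the number of members called fell from 4 to 2 at pH 7 with IL-2 and from 4 to 1 for IL-2 at pH 6.6. Genes called over the whole table went from 2623 to 1660 and from 3278 to 2415. Leaving out the block moved no other member count by more than 1.5 times. For IL-2 at pH 6.6 the count was 1 with library sizes only, where 3023 genes were called over the whole table. At pH 7 without IL-2, where edgeR called 0, DESeq2 called 1 and a fit of only the groups compared called 2. Over the whole table these fits called 232 of 13819, 301 of 13819 and 942 of 12874 genes. Leaving out each replicate gave 2 to 3 called at pH 7 with IL-2, 0 to 1 at pH 7 without IL-2 and 1 to 3 for IL-2 at pH 6.6. Over the whole table these fits called 1283 to 2425, 35 to 332 and 2119 to 2630 genes. All but 1 of the sign changes were of values that were not called. For pH 6.6 against 7.4 with IL-2, Pde4a turned to 0.0099 with RLE scaling, 0.0263 with library sizes only, 0.0093 with DESeq2 and 0.0261 with only the groups compared, and leaving out a replicate gave -0.0893 to 0.114. Without IL-2, Pde3b turned to 0.0302 with RLE scaling and with DESeq2, and leaving out a replicate gave -0.0881 to 0.0802. With library sizes only, Prkaca turned to -0.0522 and -0.0239 for IL-2 at pH 7.4 and pH 7, to 0.0154 in the interaction, where it had been called, to -0.0286 with IL-2 against 0 h and to 0.0236 without IL-2 against 0 h. The same scaling turned Prkar1a to 0.0493 in the interaction, Pde4a to 0.0024 for IL-2 at pH 6.6 and Prkacb to -0.0441 with IL-2 against 0 h. With IL-2 against 0 h, Prkacb turned to -0.0026 with only the groups compared, and leaving out a replicate gave -0.166 to 0.119 for Prkacb and -0.309 to 0.0391 for Pde4a. Leaving out a replicate also gave -0.0039 to 0.0331 for Prkar1a at pH 7 without IL-2 and -0.0093 to 0.0450 for IL-2 at pH 6.6. Library sizes as the only scaling shifted the median of all genes by -0.15 at pH 6.6 without IL-2, -0.16 and -0.12 for IL-2 at pH 7.4 and pH 7, and 0.23 in the interaction. The cause of these changes was not tested. Depth limits the values of Pde4a, the member with the fewest counts, most.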
